A study of Mus musculus with 4 samples.

Results

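Psap, Cd63, Hexa, Lgals3 and Gpnmb are 5 mouse genes whose products sit in lysosomes or mark phagocytes that take up material. They were followed in lung RNA after an allergen challenge. All array probes whose single platform gene symbol was one of these names were taken, which gave 5 probes, 1 per gene, of 18160 probes with a value on every array. All 5 had a value on all 4 arrays, and none was lost to a filter. The genes were picked because their challenge effect was already known to be high in these arrays, so that effect is described here without a test.

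The animals were BALB/cJ mice, an inbred strain that responds readily to inhaled allergens. The challenged lungs came from animals sensitized to and then challenged with ovalbumin, an egg protein that serves as a model allergen, and kept either in particle-free air or in UCP-containing air. The labels do not spell UCP out. Controls were non-sensitized mice kept in the same air as their challenged counterparts. Each of 4 dual-colour arrays, 2 per air, set challenged lung against a pool of lung RNA from 6 controls, and the dyes were swapped within each air: Cy5 marked the challenged lung on array 1 and Cy3 on array 2. The sources used here give no age, no time after challenge and no challenge without sensitization, so sensitization and challenge cannot be told apart, and the pool counts as 1 control sample whose own spread is unknown. The labels leave it unstated whether an air's arrays carry different animals, so their spread may be technical. Every value below is a log2 ratio of challenged lung over its control pool (1 means 2-fold higher), which says nothing about how abundant a transcript is, and the tissue label could not be checked by the level of lung markers. That all arrays run in one direction was worked out from their values, and that this direction is challenged over control is likely only.

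Lysosomes are acidic organelles in which hydrolases break down proteins, lipids and sugars that a cell has taken up or made. Macrophages, the main phagocytes of the lung, are rich in them, and alveolar type 2 cells store surfactant in a related organelle, the lamellar body. Many lysosomal genes are switched on by transcription factors of the MiT/TFE family (Tfeb, Tfe3, Mitf and Tfec), which bind short E-box motifs near gene starts. Prosaposin, from Psap, is cut into saposins, small proteins that present sphingolipids to their hydrolases. Hexa encodes the alpha subunit of beta-hexosaminidase, which degrades GM2 ganglioside. Cd63 is a tetraspanin of late endosomes, lysosomes and exosomes. Lgals3 is galectin-3, a sugar-binding protein long used as a macrophage marker (Mac-2) and recruited to damaged lysosomes. Gpnmb is a membrane glycoprotein of melanosomes and of lysosome-rich macrophages.

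The bases just before the start sites of 3 of these genes are shown because they hold all motif matches found before a start site among the 5; the fourth gene with a match, Gpnmb, has it after its start. The windows are those of RefSeq on GRCm38.p6, 250 bases before to 50 after each start; all 5 genes were matched by symbol, Psap with 2 start sites, and only the bases before the start are printed, on the plus strand, 5′ to 3′. Capitals mark the matches. The Psap window at chr10:60277378-60277627, the Cd63 window at chr10:128909095-128909344 and the Hexa window at chr9:59539290-59539539 read as follows.
Psap: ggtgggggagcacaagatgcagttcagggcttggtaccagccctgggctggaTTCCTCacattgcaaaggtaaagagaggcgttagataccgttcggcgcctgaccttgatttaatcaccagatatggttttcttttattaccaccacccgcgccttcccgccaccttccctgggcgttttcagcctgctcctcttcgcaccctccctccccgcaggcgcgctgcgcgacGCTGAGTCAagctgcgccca
Cd63: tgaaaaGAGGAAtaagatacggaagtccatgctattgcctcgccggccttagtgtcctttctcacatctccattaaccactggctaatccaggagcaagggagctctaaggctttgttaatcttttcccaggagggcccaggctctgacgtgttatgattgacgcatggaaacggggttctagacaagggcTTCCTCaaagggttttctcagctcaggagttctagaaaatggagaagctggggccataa
Hexa: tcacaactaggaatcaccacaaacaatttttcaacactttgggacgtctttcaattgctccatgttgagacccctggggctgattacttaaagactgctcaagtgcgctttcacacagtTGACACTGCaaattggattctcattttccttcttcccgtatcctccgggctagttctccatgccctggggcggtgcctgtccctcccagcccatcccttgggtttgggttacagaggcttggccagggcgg

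A set of 6 motifs was searched on both strands, and a match is only a description of letters. The MiT/TFE E-box CACGTG was in none of the 6 windows, beside 7.15% of all 32851 windows of that length, and its long palindromic form, the CLEAR motif, was likewise in none (0.326% of all). The related motif CATGTG was in none (14.2% of all). GAGGAA, the core bound by the macrophage factor PU.1, had 1 match before Psap, from -198 to -193, and 2 before Cd63, from -244 to -239 and from -59 to -54 (28.3% of all windows held at least 1). TGANTCA, the AP-1 site, lay from -18 to -12 before Psap and from 8 to 14 after the Gpnmb start (7.81% of all). TGACNNNGC, the core of the antioxidant response element, lay from -131 to -123 before Hexa and from -20 to -12 before Psap, where it overlaps the AP-1 match (12.4% of all). Lgals3 and the second Psap start had none of these motifs.

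In challenged lung all 5 transcripts lay above the control pool on every array, in both airs and in both dye orientations. Over the 20 values the lowest was 0.96 (1.95-fold) and the highest 2.15 (4.44-fold). Of the 5 genes, 4 were at least 2-fold higher on all 4 arrays, where 0.341% of all probes were, and all 5 were at least 1.5-fold higher (1.13% of all probes); since the genes were chosen on this contrast, nothing is read from those counts. In whole-lung RNA, more cells of a type and more RNA per cell cannot be told apart.

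Among the proteins of the lysosome lumen, Psap lay at 1.16 (array 1) and 1.55 (array 2) in particle-free air, and UCP air gave 1.48 (array 1) and 1.57 (array 2). Array 1 of particle-free air was the lowest and the other arrays lay within a narrow band, so the airs overlapped. The mean was 1.44 ± 0.19 (SD, n = 4), or 2.72-fold, and 63 of 9153 genes had a higher averaged ratio. Hexa lay at 1.34 and 0.998 in particle-free air and at 1.05 and 0.96 in UCP air. It was highest on the array that gave Psap its lowest value, and its airs overlapped too. Its mean of 1.09 ± 0.17 (SD, n = 4), or 2.13-fold, was the lowest of the 5, with 134 genes above it.

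Cd63, in the lysosomal and endosomal membrane, lay at 1.04 and 1.61 in particle-free air and at 1.32 and 1.11 in UCP air. Both its lowest and its highest value came from particle-free air, 0.57 apart, which was the widest gap between 2 arrays of an air among the 5 genes. The mean was 1.27 ± 0.26 (SD, n = 4), or 2.41-fold. Gpnmb, the glycoprotein of lysosome-rich macrophages, lay at 1.55 and 1.22 in particle-free air and at 1.18 and 1.32 in UCP air. Its 4 values were close, at 1.32 ± 0.17 (SD, n = 4), or 2.49-fold, and the airs overlapped.

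Lgals3 was the highest of the 5 on each of the 4 arrays. It lay at 2.15 and 1.95 in particle-free air and at 1.59 and 1.59 in UCP air, with a mean of 1.82 ± 0.28 (SD, n = 4), or 3.53-fold. Both arrays of particle-free air were above both of UCP air, the only one of the 5 genes whose airs did not overlap in the values as deposited. That pattern, with particle-free air higher, held for 14.6% of all probes, and 32.3% did not overlap in either direction. It did not hold with arrays centred and brought to a common spread, where Lgals3 lay at 2.04 and 1.80 against 1.94 and 1.59, and where Psap, at 1.10 and 1.45 against 1.81 and 1.57, was the gene without overlap.

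**Figure D1:**
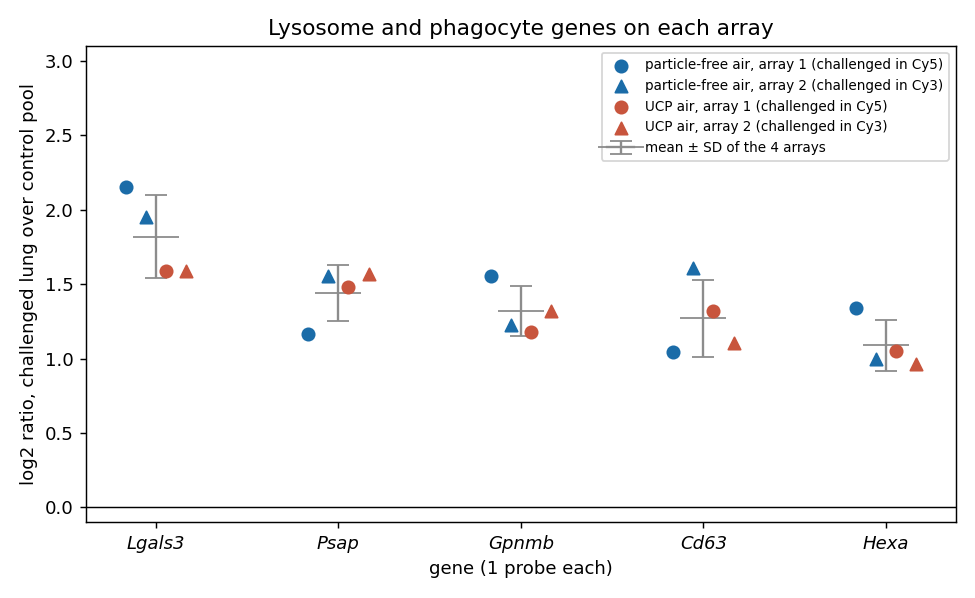
Log2 ratio of challenged lung over the control pool (vertical axis) for the 5 genes, 1 point per array, coloured by air and shaped by dye orientation, with grey bars for the mean ± SD of the 4 arrays. Every point lies above 0, from 0.96 to 2.15, and Lgals3 is highest on each array.

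Ordered by mean ratio, the genes ran Lgals3, Psap, Gpnmb, Cd63 and Hexa. The lowest Lgals3 value (1.59) lay just above the highest Psap value (1.57), so the ranges of this pair touched without overlapping; on the scaled arrays they overlapped. The ranges of Psap, Gpnmb and Cd63 overlapped widely, and the array-to-array spread does not separate them. Hexa was the lowest on 3 of 4 arrays, and Cd63 was the lowest on array 1 of particle-free air. The SDs of the 5 genes ran from 0.17 to 0.28, beside a median SD of 0.40 over all probes. Since the genes were picked on these same arrays, nothing is read from that comparison.

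The dye orientation is balanced within each air, and the 5 genes did not lean one way with it. With the challenged lung in Cy5, Psap and Cd63 averaged 1.32 and 1.18, and with it in Cy3 they averaged 1.56 and 1.36. Lgals3, Gpnmb and Hexa were the other way round, with 1.87, 1.37 and 1.20 in Cy5 and 1.77, 1.27 and 0.98 in Cy3. Taken by air, only Psap and Hexa kept their direction. Array 1 minus array 2 was -0.57 in particle-free and 0.22 in UCP air for Cd63. It was 0.33 and -0.14 for Gpnmb, and 0.20 and -0.005 for Lgals3.

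The difference between the airs is another contrast than the one that chose the genes. Each air has its own control pool, so a difference between the pools cannot be told apart from an altered response to challenge in UCP air. None of the 5 genes passed a test of this contrast against the spread of the arrays. Lgals3 was at 2.05 ± 0.14 in particle-free air and at 1.59 ± 0.0035 in UCP air (SD, n = 2 each), a difference of -0.46 (95% interval -1.25 to 0.32, limma adjusted p = 0.984). Psap had the higher mean in UCP air, by 0.17 (-0.68 to 1.01, limma adjusted p = 0.985). Hexa, Gpnmb and Cd63 differed by -0.16 (-0.99 to 0.67), -0.14 (-0.97 to 0.69) and -0.11 (-1.06 to 0.83), with limma adjusted p from 0.985 to 0.988. Unadjusted p-values ran from 0.182 to 0.764 in limma, 0 of 5 under 0.05, where 3.98% of all probes were under it. After adjustment limma called 0 of 18160 probes (0%) for this contrast. The direction of 4 of the 5 differences turned with the setting. With arrays centred and brought to a common spread, Cd63, Hexa and Gpnmb were higher in UCP air, by 0.11, 0.0093 and 0.067, Psap by 0.41, and the Lgals3 difference was -0.16. Without array 1 of particle-free air Psap was at -0.0275, Hexa at 0.009 and Gpnmb at 0.0265, and Cd63 (-0.40) lay farther from 0 than Lgals3 (-0.36). Without array 2 of particle-free air Cd63 was at 0.17. The Lgals3 difference was below 0 in all 11 alternatives, from -0.56 to -0.16. Only centring and scaling could have turned it. The others keep the deposited values, in which both arrays of particle-free air lay above both of UCP air. The intervals are wide, with bounds as far out as -1.25 and 1.01, so the values do not show that the airs act alike. They rest on the spread between arrays of an air and leave out that between control pools.

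**Figure D2:**
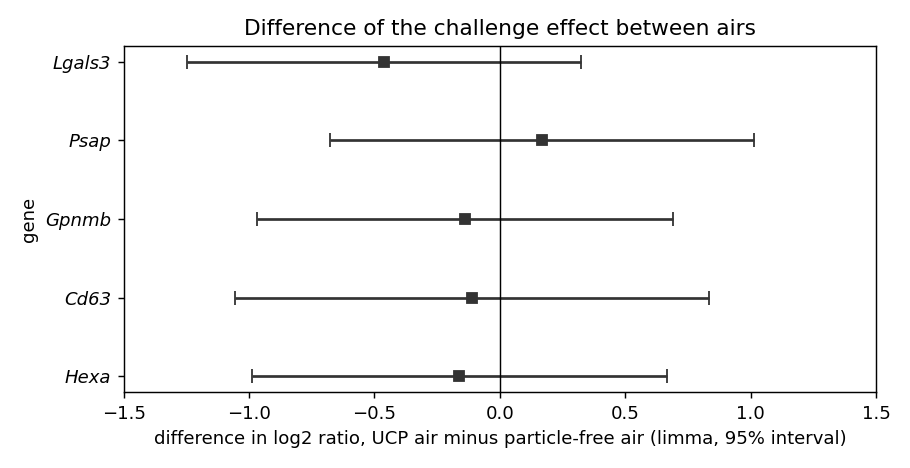
Difference in log2 ratio between UCP air and particle-free air (horizontal axis) for each of the 5 genes, squares for the estimate and bars for limma's 95% interval. Every interval crosses 0, and Lgals3 has the estimate farthest from it, -0.46; with a common array spread Psap has it, 0.41.

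Other genes of the same machinery were described from lists, none of which holds any of the 5. Since the 5 were picked for high values, nothing is read from a list lying below them. The lists too were chosen with earlier results of these data known, so their counts are descriptions. Over 92 measured lysosomal genes the median averaged log2 ratio was 0.08, and 57 lay above 0 (62% beside 48.3% of all genes). At least 1.5-fold higher on all 4 arrays were 6 of the 92 and 1 was as much lower, beside 1.16% and 1.02% of all genes. By limma with probes of a gene averaged, 0 of the 92 passed an adjusted p of 0.05 in either direction, while an unadjusted p under 0.05 was reached by 17 on the high side and 4 on the low side (8.06% and 7.56% of all genes). The same fit called 0.0656% of all genes higher and 0.0328% lower.

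The hydrolases and activators that work beside prosaposin and hexosaminidase had a median of 0.09 over 23 of 37 listed genes. Of these, 14 lay above 0 and 1, the lysosomal phospholipase Pla2g15, was at least 1.5-fold higher on all arrays, at 0.998 ± 0.20 (SD, n = 4). The lysosomal protease Tpp1 and the cholesterol carrier Npc2 lay at 0.56 ± 0.35 and 0.67 ± 0.20, the 2 Npc2 probes being 0.97 apart. Among enzymes that need a saposin, the acid ceramidase Asah1 lay at 0.54 ± 0.33 and the galactosylceramidase Galc at 0.31 ± 0.52. Arylsulfatase A (Arsa) lay at -0.24 ± 0.26 and alpha-galactosidase (Gla) at -0.89 ± 1.37, its array 2 values being -2.46 in particle-free and 0.87 in UCP air. Gm2a, the activator that hands GM2 ganglioside to hexosaminidase, lay at 0.56, 0.41, 0.79 and 0.45 on the 4 arrays, a mean of 0.55 ± 0.17. Psapl1, a gene related to Psap, lay at -0.24 ± 0.34 (SD, n = 4 each).

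Cathepsins, the lysosomal proteases, had the highest median of the lysosomal lists, 0.57 over 10 of 13 listed genes, and 4 of them were at least 1.5-fold higher on all arrays. These were Ctsk at 2.61 ± 0.49, Ctss at 2.27 ± 0.36, Ctsz at 1.31 ± 0.27 and Ctsb at 0.95 ± 0.16 (SD, n = 4 each), the 2 Ctsb probes being 0.96 apart. In limma Ctsk and Ctss shared the smallest adjusted p of the lysosomal lists, 0.0551. Ctsf, a cathepsin as well, lay at -0.42 ± 0.29.

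Lysosomal membrane proteins had a median of -0.07 over 13 of 21 listed genes. Laptm5, a membrane protein of blood cells, was the one at least 1.5-fold higher on all arrays, at 0.98 ± 0.22, while the abundant membrane protein Lamp1 lay at 0.09 ± 0.16 and the calcium channel Mcoln1 at -0.57 ± 0.40 (SD, n = 4 each). The 3 Lamp1 probes were 0.71 apart. Tmem106b and the chloride transporter Clcn7 lay at -0.63 ± 0.21 and -0.50 ± 1.25. Of the proton pump that acidifies the lysosome, 12 of 14 subunits lay above 0, with a median of 0.21, and 0 reached 1.5-fold on all arrays. Its highest members were Atp6ap1 at 0.77 ± 0.30, Tcirg1 at 0.75 ± 0.38 and Atp6v1b2 at 0.71 ± 0.24.

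Sorting and fusion machinery had a median of 0.04 over 14 genes, 8 of them above 0. Ap3b1, a subunit of the AP-3 adaptor that carries Cd63 to lysosomes, lay at 1.09 ± 1.49 with probes 1.81 apart, and Ap3d1, another subunit, at 0.33 ± 0.19. Gnptab, which makes the mannose 6-phosphate tag of lysosomal enzymes, lay at -0.57 ± 1.49, with -2.78 on array 2 of UCP air. The MiT/TFE factors and their regulators had a median of 0.20 over 7 of 10 genes, with Tfe3 at 0.37 ± 0.23, Tfeb at 0.20 ± 0.54 and the nutrient-sensing GTPase Rragd at -0.45 ± 0.11. Autophagy genes had a median of -0.05 over 11 genes, and Gabarapl1, which coats autophagosomes, was at least 1.5-fold lower on all arrays, at -0.82 ± 0.08 (SD, n = 4 each). That value averages 3 Gabarapl1 probes, which were 0.82 apart.

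Relatives of Cd63 and Lgals3 were described in the same way. Of 8 measured tetraspanins 6 lay above 0 and 0 reached 1.5-fold on all arrays, with a median of 0.23. Tspan4 was highest at 0.52 ± 0.40 and Cd81 lowest at -0.38 ± 0.39. Of 5 galectin list genes, Lgals1 lay at 0.66 ± 0.25 and Lgals3bp, a ligand of galectin-3, at 0.45 ± 0.30, both above 0 on every array. Lgals8 and Lgals9, which like galectin-3 bind damaged lysosomes, lay at -0.20 ± 0.31 and -0.31 ± 0.27, and Lgals4 at -0.35 ± 0.26.

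**Figure D3:**
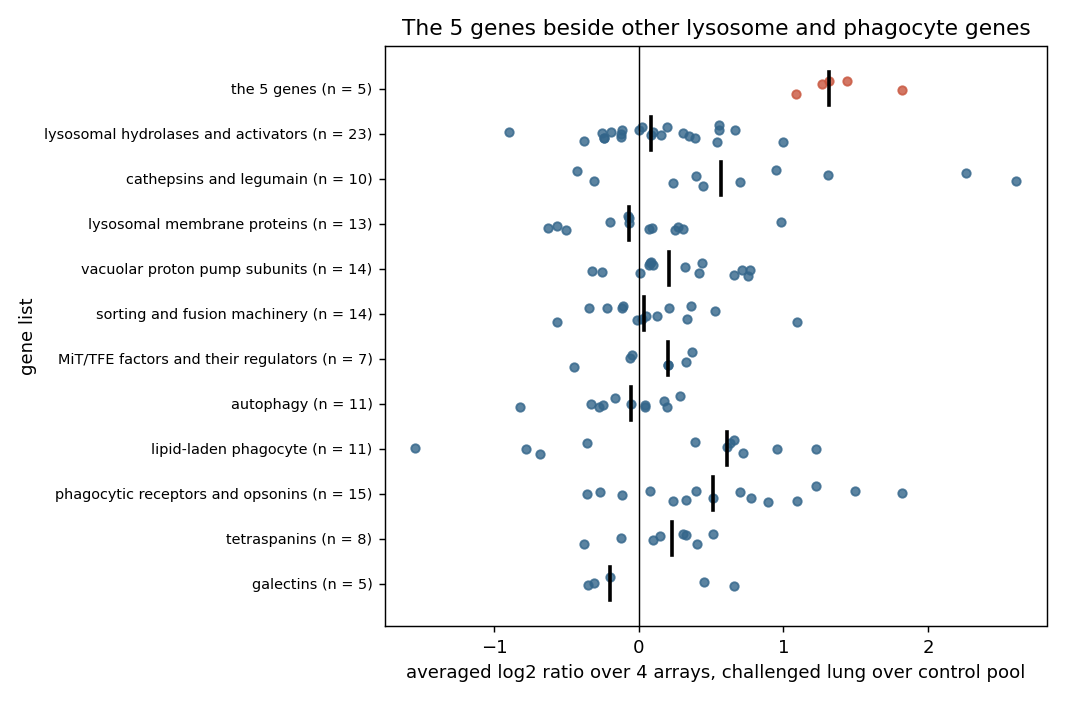
Averaged log2 ratio over 4 arrays (horizontal axis) of the 5 genes and of each measured gene of 11 lists, 1 point per gene and a black bar for the list's median. The 5 genes have a median of 1.32, and the list medians run from -0.20 (galectins) to 0.61 (lipid-laden phagocyte).

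Phagocyte genes had a higher median than the lysosomal genes, in lists chosen with earlier results of these data known. Over 24 measured genes the median was 0.56, 18 lay above 0 (75% beside 48.3% of all genes), 5 were at least 1.5-fold higher on all arrays and 2 at least 1.5-fold lower (1.16% and 1.02% of all genes). Limma called 0 of the 24, while 12 on the high side and 3 on the low side had an unadjusted p under 0.05 (8.06% and 7.56% of all genes). Over the 128 genes of the lysosome, phagocyte and family lists, 11 were at least 1.5-fold higher and 3 lower on all arrays, beside the same 1.16% and 1.02%, and at 2-fold 3 and 0 were, beside 0.295% and 0.306% of all genes. For the difference between airs limma called 0 of the 128, and 6 had an unadjusted p under 0.05 (3.94% of all genes). Among receptors and opsonins the mannose receptor Mrc1 lay at 1.82 ± 0.22, the Fc receptor chain Fcer1g at 1.498 ± 0.62, the scavenger receptor Msr1 at 1.23 ± 0.34 and the complement component C1qa at 1.09 ± 0.46 (SD, n = 4 each). The other C1q chains did not move together, with C1qc at 0.78 ± 0.26 and C1qb at -0.11 ± 0.31. The alveolar macrophage receptor Marco lay at -0.36 ± 0.36.

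Genes of lipid-laden phagocytes split. The lipid droplet protein Plin2 lay at 0.61 ± 0.09, the protease inhibitor Cstb at 0.72 ± 0.08 and the signalling adaptor Tyrobp at 0.96 ± 0.63. On the low side were the fatty acid binding proteins Fabp4 at -1.55 ± 0.60 and Fabp5 at -0.78 ± 0.25, both at least 1.5-fold lower on all arrays, and the lipase Lpl at -0.69 ± 0.48 (SD, n = 4 each). Fabp4 and Lpl are abundant in fat as well, and the fat list lay low on the same arrays, with medians of -1.14, -1.62, -1.76 and -1.96. The part of fat in these values was not tested.

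Markers of other cell types and tissues were set beside the 5 genes on each array. Of 14 macrophage and monocyte markers 4 were measured, with medians of 0.25 and 0.16 in particle-free air and 0.59 and 0.42 in UCP air. Mpeg1, a pore-forming protein of macrophages, lay at 0.83 ± 0.19, Aif1 at 0.58 ± 0.37, Siglec1 at -0.55 ± 1.58 and the lysozyme Lyz2 at -0.34 ± 0.33 (SD, n = 4 each). Siglec1 was at -2.89 on array 2 of UCP air and from -0.09 to 0.55 on the other arrays. Neutrophil markers (9 of 12) had medians of 0.36, 0.56, 0.89 and 0.67 on the 4 arrays, with Ngp at 1.33 ± 0.35 and Camp at 1.19 ± 0.47. Others of the list lay near 0, such as Ltf at -0.08 ± 0.26 and Mpo at 0.19 ± 0.81, the 3 Mpo probes being 0.41 apart. Alveolar type 2 markers (7 of 11) had medians of -0.34, -0.29, -0.26 and -0.01, with the surfactant protein Sftpb at -0.88 ± 0.25 and Sftpc at 0.07 ± 0.28. Of 8 eosinophil markers only Prg2 had a value on all arrays, at 0.49 ± 0.44, and no melanocyte or B cell marker had a value on all 4 arrays. The part of each cell type in the ratios of the 5 genes was not tested.

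The list medians of transcripts made mainly in liver, heart and thymus lay apart between the airs. So did those of fat, T cell and housekeeping genes, and 32.3% of all probes did not overlap between the airs. The 5 genes had medians of 1.34 and 1.55 in particle-free air and of 1.32 and 1.32 in UCP air. These did not overlap either. Liver-made transcripts had medians of 3.56 and 2.99 in particle-free air and of 0.53 and 0.48 in UCP air. Heart muscle genes had medians of -0.02 and -0.25 against -2.72 and -2.83, and thymus genes of -0.53 and -0.36 against -1.58 and -1.69. Not every gene followed its list. The liver-made Apoa1 lay at 2.71 and -0.92 against 0.68 and 0.55. The heart muscle gene Actc1 lay at 0.37 and -0.33 against -0.32 and 0.97. The airs overlapped for both, and for no other measured gene of the liver, heart and thymus lists. The part of these organs in the Lgals3 difference of -0.46 was not tested.

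**Figure D4:**
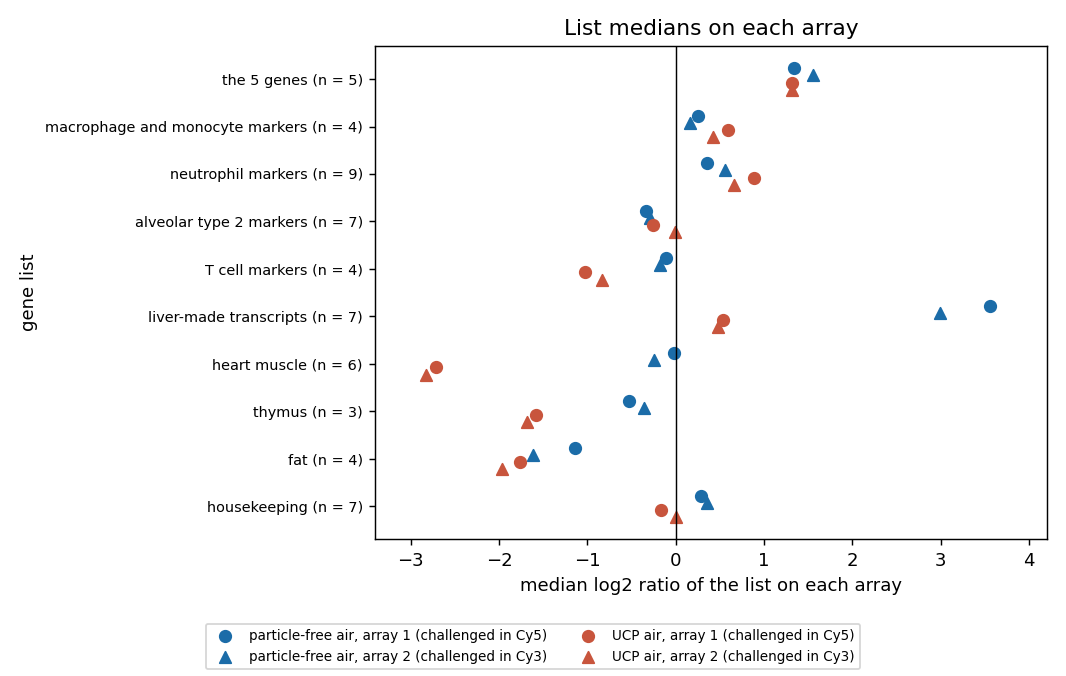
Median log2 ratio (horizontal axis) on each of the 4 arrays for the 5 genes and for 9 lists of cell type, tissue and housekeeping genes, coloured by air and shaped by dye orientation. The medians of the 5 genes run from 1.32 to 1.55. In every row the medians of the airs do not overlap, and the gap is widest for the liver-made and heart muscle lists.

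The genes whose 4 values came closest to each of the 5 were found by the root mean square difference over the 4 arrays, among 9153 genes. Nearest to Lgals3 was Chil1, a chitinase-like protein of macrophages and neutrophils, at 2.25 and 1.83 in particle-free air and 1.65 and 1.51 in UCP air, a difference of 0.09. The pancreatic protease gene Cpa1 (0.29) and Lcn2, a neutrophil granule protein (0.36), followed, the 2 Lcn2 probes being 2.93 apart. Gpnmb was nearest to Arg1, the arginase of alternatively activated macrophages (0.10), to the mucosal peptide Tff2 (0.14) and to the cathepsin Ctsz (0.20). Hexa was nearest to the ribosomal protein Rpsa (0.06), the chemokine Ccl22 (0.11) and the actin-capping protein Capg (0.14). Psap was nearest to Sec61b, a subunit of the protein channel of the endoplasmic reticulum (0.17), to the cytokine-induced inhibitor Cish (0.18) and to the lectin Clec4b1 (0.18). Cd63 was nearest to Vmp1 (0.20), Sec61b (0.21) and Clec4b1 (0.22). Among the 5 genes themselves, Cd63 was the fourth nearest to Psap (0.25), and Lgals3 stood farthest from Hexa (0.75). These distances rest on 4 arrays that share their control pools within an air.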

How the data were processed

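Per the labels' protocols, RNA came from single organs, 20 µg of it was made into cDNA that took up Cy3 or Cy5 indirectly, and 6 control animals made up the reference pool. The authors deposited log2 ratios of the channels for 20205 probes. How these were scanned and normalized is not given in the sources used here. Each array's plateau of largest ratios fell at the log2 of 100000, a cap on the ratio, shifted by a constant of that array (-0.05, 0.56, 0.55 and 0.28). With the constant removed, 100% of ratios under 0.3 were whole steps of 3 decimals within 0.0011 on the log2 scale. The plateau was positive where the challenged lung was in Cy5 and negative where it was in Cy3, so the 4 arrays run the same way. That the stored ratio was Cy5 over Cy3 is the usual convention and not stated, so the overall sign is likely only. Array medians were -0.01, -0.07, -0.02 and 0.02, and between arrays Pearson's r was 0.07 to 0.18.

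Values were used as deposited. Of the probes, 13852 had 1 gene symbol, 0 several and 6353 none in the platform annotation, and 18160 had a value on all arrays. Symbols were updated by Entrez identifier (13849 matched). Probes of a gene were averaged for lists and nearest genes (9153 genes). Models used limma 3.58.1 (R 4.3.3), 1 coefficient per air, 2 residual degrees of freedom, eBayes, two-sided tests and Benjamini-Hochberg adjustment over all probes or genes at 0.05. The fit was run on simulated data with 1 common spread for all probes, which these arrays do not have, so this checks the calculation only. The 5 genes and all lists were chosen with earlier results of these data known. Named list genes come from the 4 with the averaged log2 ratio farthest from 0 in each list, on either side. Others (partners and relatives of the 5, Ctsf, Lamp1, Plin2, Cstb, Lpl, Marco, C1qb, C1qc, Sftpc, Ltf, Mpo, Apoa1, Actc1, and the genes on opposite sides of 0) were chosen after their values were seen. Alternatives are in the closing section.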

Additional observations from a re-analysis of the deposited data

Results flagged for a closer look

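A set of 7 list genes had both arrays of one air above 0 and both of the other below it, of 160 (4.38%), beside 7.7% of all genes. Except through limma's difference of the airs, in which each had an adjusted p of 0.979, the differences were not tested. Trem2, a lipid-sensing receptor of phagocytes, lay at 2.97 and 0.84 in particle-free air and at -0.81 and -0.46 in UCP air, a difference of -2.54. Acp5, the tartrate-resistant acid phosphatase of macrophages and osteoclasts, lay at 0.65 and 0.49 against -1.87 and -0.79, a difference of -1.90. The mast cell tryptase Tpsb2 differed by -0.78 and the autophagy gene Map1lc3a by -0.51. In the other direction, the surfactant lipid transporter Abca3 differed by 0.74, the proton pump subunit Atp6v1g1 by 0.71 and the tetraspanin Cd151 by 0.39. None of the 5 genes showed this pattern.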

How the results depend on the processing

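Under all 11 alternatives run the averaged log2 ratios of the 5 genes moved by less than 1 SD, their median running from 1.32 to 1.41. These alternatives were centring, scaling, a replicate block, values on at least 3 arrays and robust moderation. The others were plateau values left out, probes of a gene averaged, and each array left out. Except for centring and scaling, this outcome was fixed by arithmetic. Leaving out 1 array moves such a mean by less than its SD, and the rest keep the 4 values as they are. In each alternative that kept 2 arrays per air, the count of the 5 genes that differed between airs was 0, with limma adjusted p of 0.96 or more. The differences themselves were less stable. With arrays centred and brought to a common spread they were 0.11 for Cd63, 0.0093 for Hexa and 0.067 for Gpnmb, all below 0 in the values as deposited, while Psap was at 0.41 and Lgals3 at -0.16. With 1 array left out they ran from -0.0275 to 0.36 for Psap, -0.40 to 0.17 for Cd63, -0.33 to 0.009 for Hexa, -0.30 to 0.0265 for Gpnmb and -0.56 to -0.36 for Lgals3. The cause was not tested. With 1 array left out, the median of the 5 ran from 1.32 to 1.41, and the count of list genes called in either contrast was 0. With the replicate number as a block, which is also the dye orientation, the median of the 5 was 1.32, and 0 of them and 0 list genes were called. Deviations of same-numbered arrays correlated at 0.05, so the numbers were not taken to pair the arrays. Of the 128 lysosome, phagocyte and family genes limma called 0 in the averaged effect, 3 with robust moderation (Ctsk, Mrc1 and Ctss, adjusted p = 0.0473) and 4 with plateau values left out (these 3 and Fabp4, adjusted p from 0.0389 to 0.0464), against 0 in the 10 other alternatives, which included the median probe of a gene and the arrays of an air averaged. At least 1.5-fold on all arrays 11 were higher and 3 lower (1.16% and 1.02% of all genes), and at 2-fold 3 and 0 (0.295% and 0.306%). Leaving out 1 array, a setting chosen after seeing the data, gave 12 to 14 higher and 3 to 4 lower. Brightness was not used here, so dim probes could not be set apart, and 2 arrays per air limit every difference between airs.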

Other observations

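Mast cell, dendritic cell and T cell markers were looked at as well. The mast cell and basophil genes Mcpt8 and Cpa3 lay at 0.32 ± 0.30 and -0.01 ± 0.19, and the dendritic cell genes Ccr7 and Clec9a at 0.18 ± 0.11 and -0.51 ± 0.57 (SD, n = 4 each). All 4 measured T cell markers had an averaged ratio below 0, where 48.3% of all genes lay above it. Their medians were -0.11 and -0.18 in particle-free air and -1.02 and -0.84 in UCP air. Cd8a was at -0.28 in the particle-free and -1.58 in the UCP group. In the particle-free group Cd3d, Thy1 and Cd3g were at 0.02, 0.13 and -0.18. The thymus list also lay lower in UCP air, and its part in these values was not tested. Housekeeping genes had a median of 0.16 over 7 genes, with Ppia and B2m at 0.52 ± 0.15 and 0.53 ± 0.26 and Sdha at -0.38 ± 0.31.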
